A study of Mus musculus with 6 samples.

Results

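Interferon-stimulated genes were followed in the whole colon of 3 wild-type mice and 3 mice labelled Tnfrsf1a-/-, a knockout of the gene for TNFR1, a receptor of the cytokine TNF. The set held 33 genes, named from knowledge of the interferon response, and all 33 were found among the 30330 genes of the table. All animals were males of 12 weeks, and the labels give the strain C57Bl/6J for both genotypes. The descriptions do not say whether knockout and wild-type mice were littermates, or which part of Tnfrsf1a was removed. The value of a gene is its TPM, a transcript abundance corrected for transcript length that sums to the same total in every library, added over the transcripts of the gene.

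Type I interferons bind a receptor made of IFNAR1 and IFNAR2, and type III interferons bind IFNLR1 with IL10RB. Both activate the kinases JAK1 and TYK2 and the complex ISGF3, which holds STAT2 and IRF9 and binds the interferon-stimulated response element (ISRE) in the promoters of its targets. Interferon gamma acts on a different element, the gamma-activated site (GAS). The targets hold viral RNA, degrade it or block its translation, and in the gut their baseline expression is known to depend in part on signals from the microbiota. TNF and interferon are known to act together on some of these genes, of which Irf1 is one.

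The promoters of the set are shown first, because the ISRE is the feature that these genes are known to share. RefSeq promoters of the build GRCm38.p6, each running from 250 bases before the start of the gene to 50 after it, were matched by symbol for 24 of the 33 genes. The core searched was GAAA, any 2 bases and GAAA again, on both strands, so that it also appears as TTTC, any 2 bases and TTTC. Matches were allowed to overlap. It stood in the 250 bases before the start in 10 of the 24 genes. Counted by promoter, these were 10 of 27, against 2.98% of all 32851 promoters. The sequences below run 5′ to 3′ on the strand of the gene, with the core in capitals. In Irf1, which had no such core before its start, the capitals mark a GAS, searched as TTCNNNGAA, which reads the same on both strands.
Isg15: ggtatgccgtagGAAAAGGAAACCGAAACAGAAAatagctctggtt
Ifit1: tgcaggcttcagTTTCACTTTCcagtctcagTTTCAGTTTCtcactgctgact
Ifit3: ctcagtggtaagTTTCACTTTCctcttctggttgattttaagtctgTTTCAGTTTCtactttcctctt
Oas1a: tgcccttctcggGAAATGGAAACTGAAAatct
Oas1g: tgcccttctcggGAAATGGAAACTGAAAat
Bst2: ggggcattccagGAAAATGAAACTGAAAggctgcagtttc
Ddx60: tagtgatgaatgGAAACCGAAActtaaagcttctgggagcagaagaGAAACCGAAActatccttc
Irf1: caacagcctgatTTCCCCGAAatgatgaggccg

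The windows lie at chr4:156200863-156200908 for Isg15, chr19:34640773-34640825 for Ifit1 and chr19:34583361-34583428 for Ifit3. Those of the OAS genes lie at chr5:120907526-120907557 for Oas1a and chr5:120887614-120887643 for Oas1g. The others are chr8:71537575-71537614 for Bst2, chr8:61928022-61928086 for Ddx60 and chr11:53769912-53769944 for Irf1. Ifit1, Ifit3, Ddx60 and Irf1 are on the plus strand and the other 4 on the minus strand. Oas3, Rsad2 and Stat2 also held an ISRE core. The GAS was present before the start in 5 of the 24 genes, or 5 of their 27 promoters, and in 7.02% of all promoters. The 2 windows of Oas1a and Oas1g begin with the same 30 bases.

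The libraries were compared before the genes were read. The study states an average of 30M paired-end reads per library, and the depth of each single library is unknown, since TPM keeps no read count. Transcripts without a gene name held 27.35% of all TPM in wild-type replicate 2 and between 1.86 and 7.23% in the other 5 libraries. The TPM of every other transcript in wild-type replicate 2 is thereby lowered, so the main comparisons are also given after median-of-ratios scaling, which divides each library by the median ratio of its genes to their geometric mean over libraries. The wild-type libraries had factors of 1.13, 0.784 and 1.1, in the order of their replicate numbers, and the knockout libraries 1.06, 0.916 and 1.06. The targeted gene, Tnfrsf1a, was still measured in the knockout mice, at 49.2, 36.5 and 46.9 TPM against 71.2, 44.1 and 63.0 TPM in wild type. The groups overlapped with TPM as deposited. After scaling Tnfrsf1a was lower in all knockout mice, at 46.5, 39.9 and 44.2 against 63.0, 56.3 and 57.3 (limma adjusted p = 0.286). Its main wild-type transcript, ENSMUST00000032491, did not overlap, with 67.6, 39.9 and 59.1 TPM against 23.5, 20.4 and 25.6 TPM (limma adjusted p = 0.197, 0.0167 after scaling). Another, ENSMUST00000125880, had at most 1.20 TPM in the wild-type mice and 18.01, 12.4 and 14.1 TPM in the knockout mice (limma adjusted p = 0.00124). Colon epithelial markers such as Krt20 and Cdx2 were measured in every library. In whole colon, fewer cells of a type and less RNA per cell cannot be told apart.

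No tested interferon-stimulated gene passed the test of a difference between genotypes. Usp18 had the largest positive difference, 0.30 on the log2 scale, and Eif2ak2 the largest negative one, −0.20. Both rested in part on single libraries, since Usp18 was 0.043 without knockout replicate 3 and Eif2ak2 ran from −0.056 without knockout replicate 2 to −0.355 without wild-type replicate 2. Genes were tested on log2(TPM + 0.5) with limma where their mean was at least 1 TPM over the 6 libraries. This scale understates the change of low genes. Of the 33 genes 29 were tested, and 0 passed a Benjamini-Hochberg adjusted p of 0.05 in limma, where 38 of all 14248 tested genes, or 0.267%, did. An unadjusted p below 0.05 was reached by 0 of the 29 and by 3.69% of all tested genes, and after scaling by 0 of the 29 and by 11.3%. The smallest adjusted p among the 29 was 0.9999. After scaling, 0 of the 29 passed, where 0.0421% of all genes did, and the smallest adjusted p was 0.497. With so few genes called in all, a count of 0 is near the background. The 95% interval of the log2 fold change lay between −1 and 1 for all 29 genes, with TPM as deposited and after scaling, and for 92.9% of all genes with TPM as deposited. A 2-fold change of TPM is smaller than 1 on this scale, most of all for low genes, and the intervals of Usp18 and Mx1 held one, as did those of Oasl2 and Zbp1 after scaling.

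The difference was above 0 for 15 genes and below 0 for 14, and 55.7% of all tested genes were above 0. After scaling, 11 were above and 18 below, and 49.4% of all genes were above 0. The median log2 fold change was 0.01 over the 29 genes and 0.02 over all tested genes, and −0.02 and −0.003 after scaling. The TPM of the 2 genotypes overlapped for all 29 genes, while they did not overlap for 4.98% of all tested genes. After scaling, the share of all genes without overlap was 18.7%, and the 29 interferon-stimulated genes still had 0.

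**Figure D1:**
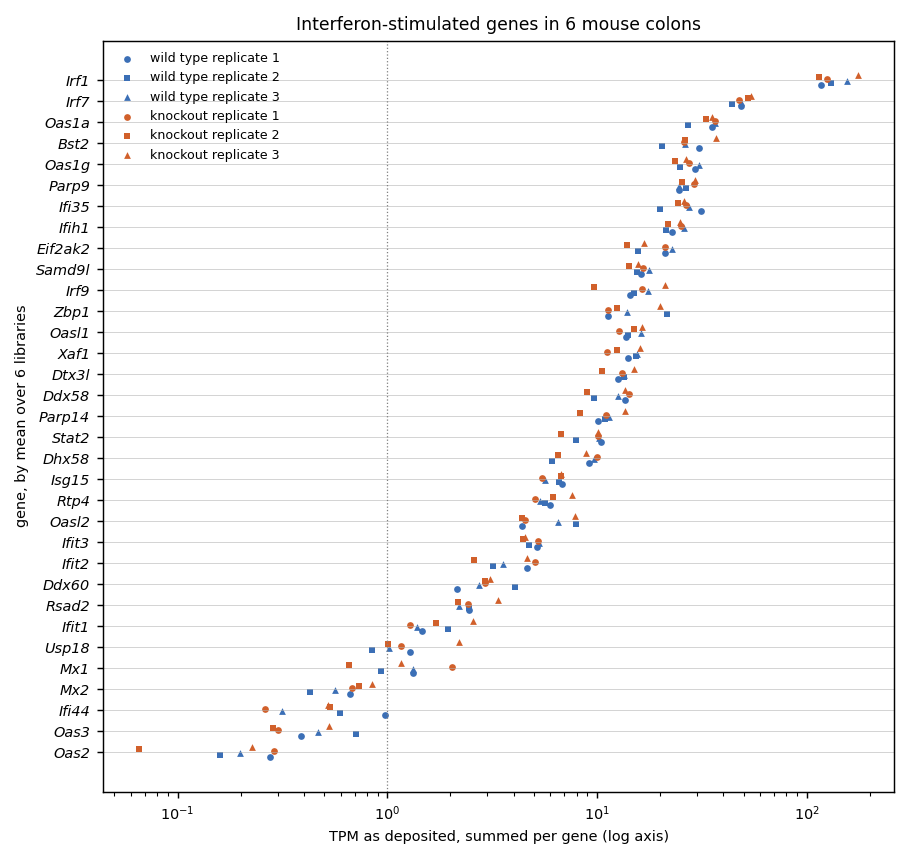
TPM of each of the 33 genes (rows, ordered by their mean over 6 libraries) on a log axis, with 1 point per library, wild type in blue and knockout in orange, and a dotted line at 1 TPM, the mean required for testing. Irf1 lies highest and Oas2 lowest, and only in Mx2, which was not tested, do all orange points lie to the right of the blue ones.

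**Figure D2:**
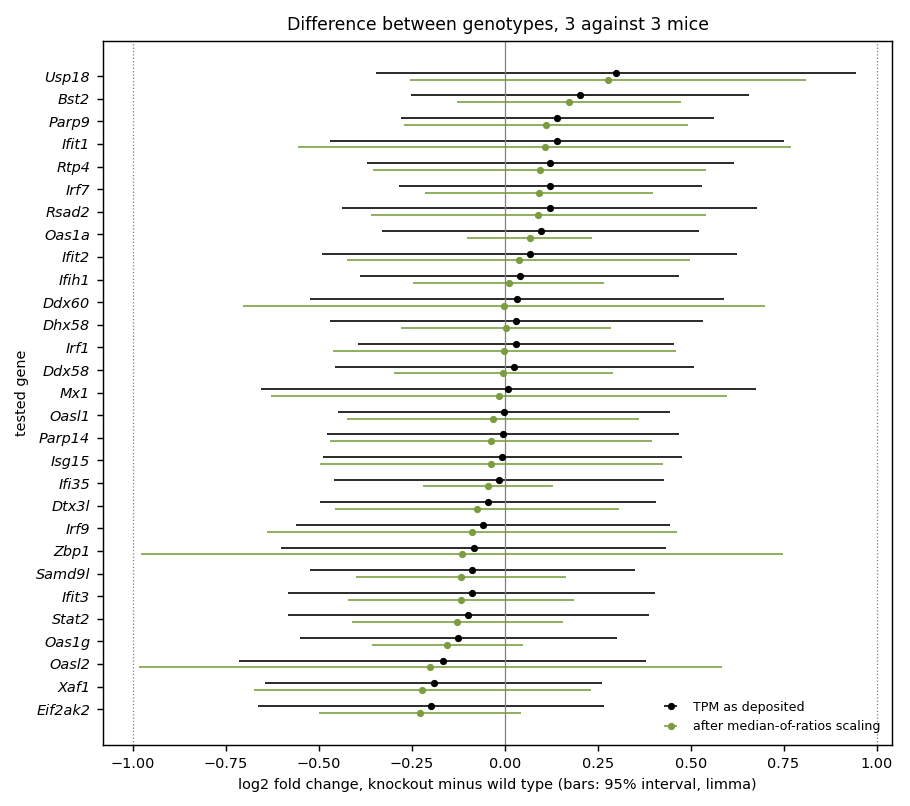
Log2 fold change of knockout minus wild type for the 29 tested genes, with bars for the 95% interval from limma, for TPM as deposited (black) and after median-of-ratios scaling (green). Every bar crosses 0 and ends between −1 and 1.

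The 2 most abundant of the 33 genes encode transcription factors. Irf1, a factor induced by interferon gamma and by TNF (chr11:53770014-53778374), had the highest level of the set, with 117, 131 and 155 TPM in the wild-type mice and 125, 114 and 176 TPM in the knockout mice. With TPM as deposited its highest value was in knockout replicate 3 and its lowest in knockout replicate 2. After scaling Irf1 had 103.4, 166.7 and 140.9 in wild type and 117.9, 124.6 and 166.5 in knockout. Both ends of the range then came from the wild-type group. The log2 fold change of Irf1 was 0.03 ± 0.21 (SE), with an interval from −0.40 to 0.45. Irf7, the factor that amplifies type I interferon expression, measured 47.2 ± 2.73 TPM in the wild-type mice and 51.4 ± 3.52 TPM in the knockout mice (SD, n = 3). The ISGF3 subunits Irf9 and Stat2 had means of 15.6 and 9.58 TPM in the wild-type mice and 15.7 and 9.005 TPM in the knockout mice. Irf9 ranged from 9.68 TPM in knockout replicate 2 to 21.0 TPM in knockout replicate 3, while wild type lay between, from 14.4 to 17.5 TPM.

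The OAS family makes the short oligoadenylates that switch on the nuclease RNase L, and Oas1a and Oas1g were its most abundant members. Oas1a (chr5:120896256-120907521) measured 35.3, 27.1 and 36.6 TPM in the wild-type mice and 36.5, 33.1 and 35.5 TPM in the knockout mice. The low value was that of wild-type replicate 2, and after scaling the 6 values ran from 31.2 to 36.1. Oas1g (chr5:120876142-120887613) measured 29.4, 24.8 and 30.8 TPM in the wild-type mice and 27.6, 23.6 and 26.5 TPM in the knockout mice. The groups overlapped for both genes, with log2 fold changes of 0.10 ± 0.21 and −0.12 ± 0.21 (SE). These neighbours are near copies, as their promoters also show. Of the sequences of 31 bases in the transcripts of Oas1a, 68.7% also occur in those of Oas1g, and the split of reads between the pair is uncertain.

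The remaining OAS genes were lower. Oasl2, an OAS-like protein, had 4.37, 7.97 and 6.55 TPM in the wild-type mice and 4.56, 4.37 and 7.83 TPM in the knockout mice. It was high in wild-type replicate 2 and knockout replicate 3 and its log2 fold change was −0.17 ± 0.27 (SE). Oasl1, known to restrain the translation of Irf7, had 14.7 ± 1.36 and 14.7 ± 1.89 TPM (SD, n = 3). Oas2 and Oas3 had means of 0.202 and 0.447 TPM over the 6 libraries and were not tested.

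IFIT proteins bind foreign RNA and block its translation, and their genes lie side by side on chromosome 19. Ifit3 (chr19:34583531-34588731) measured 5.17, 4.72 and 5.30 TPM in the wild-type mice and 5.24, 4.43 and 4.55 TPM in the knockout mice, a narrow range with overlap. Its log2 fold change was −0.09 ± 0.24 (SE). Ifit3 shares 61.8% of its sequences of 31 bases with Ifit3b, so its level is uncertain. Ifit1 (chr19:34640871-34650009) measured 1.46, 1.95 and 1.38 TPM in the wild-type mice and 1.28, 1.71 and 2.57 TPM in the knockout mice. With TPM as deposited the highest and the lowest value of Ifit1 were both in knockout libraries. After scaling the highest was 2.49, in wild-type replicate 2, and the lowest 1.21, in knockout replicate 1. The log2 fold change of Ifit1 was 0.14 ± 0.30 (SE) with TPM as deposited. Ifit2 had 3.795 ± 0.746 and 4.10 ± 1.34 TPM.

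ISG15 is a ubiquitin-like protein that interferon induces, and USP18 removes it from its targets and also dampens the type I receptor. Isg15 (chr4:156199424-156200818) measured 6.83, 6.57 and 5.64 TPM in the wild-type mice and 5.46, 6.77 and 6.74 TPM in the knockout mice. The groups covered nearly the same range with TPM as deposited, and the log2 fold change was −0.01 ± 0.24 (SE). After scaling Isg15 ran from 5.13 to 8.38 in wild type and from 5.15 to 7.39 in knockout. Usp18 (chr6:121245906-121270917) measured 1.28, 0.841 and 1.02 TPM in the wild-type mice and 1.16, 1.01 and 2.20 TPM in the knockout mice. Knockout replicate 3 stood above the other 5 libraries, among which the groups overlapped. The log2 fold change of Usp18 was 0.30 ± 0.32 (SE), with an interval from −0.35 to 0.95, and the exact permutation p (two-sided) was 0.5, where 3 mice against 3 cannot give a p below 0.1.

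The 6 sensors of nucleic acid had log2 fold changes between −0.20 and 0.04, and single mice stood out for some of them. Ifih1, which encodes the long double-stranded RNA sensor MDA5 (chr2:62595798-62646255), measured 22.8, 21.3 and 26.0 TPM in the wild-type mice and 25.3, 21.9 and 24.9 TPM in the knockout mice. The 2 groups had nearly the same range with TPM as deposited. After scaling Ifih1 had 20.2, 27.2 and 23.6 in wild type and a narrower 23.8, 23.9 and 23.5 in knockout. Ddx58, which encodes RIG-I, had 12.0 ± 2.06 and 12.3 ± 2.89 TPM, and Dhx58, which encodes their relative LGP2, 8.31 ± 1.95 and 8.47 ± 1.78 TPM (SD, n = 3). Eif2ak2 encodes PKR, the kinase that stops translation on double-stranded RNA (chr17:78852564-78882573). It measured 21.0, 15.7 and 22.8 TPM in the wild-type mice and 21.1, 13.9 and 16.8 TPM in the knockout mice, with overlap and a log2 fold change of −0.20 ± 0.23 (SE). After scaling it was −0.23 ± 0.12 (SE), with the smallest unadjusted p of the 29 genes in limma, 0.0876. Zbp1, the sensor of Z-form nucleic acid that can start necroptosis, had its highest value, 21.6 TPM, in wild-type replicate 2 and its next, 20.001 TPM, in knockout replicate 3. The other 4 libraries had between 11.3 and 13.9 TPM of Zbp1. Zbp1 and Ddx60 were chosen for mention after their values were seen, as was Irf9. Ddx60 was likewise highest in wild-type replicate 2, at 4.05 TPM, and ran from 2.15 to 3.10 TPM in the others.

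PARP9 and its partner DTX3L form an ADP-ribosylating ubiquitin ligase, and PARP14 is a related enzyme. Parp9 (chr16:35938470-35972605) measured 24.5, 26.5 and 24.7 TPM in the wild-type mice and 29.1, 25.5 and 29.2 TPM in the knockout mice. Knockout replicates 1 and 3 were above all these wild-type values and knockout replicate 2 was between them, with a log2 fold change of 0.14 ± 0.21 (SE). After scaling Parp9 had 21.7, 33.9 and 22.4 in wild type and 27.4, 27.9 and 27.6 in knockout. Wild-type replicate 2 was then above all knockout values. Parp9 and Dtx3l lie head to head with overlapping ends, and 8.54% of the sequences of 31 bases of Parp9 also occur in Dtx3l. Dtx3l had 13.2 ± 0.477 and 12.9 ± 2.19 TPM and Parp14 10.8 ± 0.631 and 10.97 ± 2.66 TPM. With TPM as deposited the 3 knockout mice were more widely spaced for these 2 genes, with knockout replicate 2 lowest and knockout replicate 3 highest. After scaling the wild-type mice were the more widely spaced, with replicate 1 lowest and replicate 2 highest. Scaled Dtx3l was 11.2, 17.2 and 12.3 in wild type and 12.4, 11.6 and 14.1 in knockout. Scaled Parp14 was 8.96, 13.9 and 10.3 in wild type and 10.4, 9.02 and 12.8 in knockout. The difference in spread was not tested.

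BST2 (tetherin) holds budding virus at the cell surface, and RSAD2 (viperin) makes a nucleotide that ends viral RNA chains. Bst2 (chr8:71534255-71537456) measured 30.7, 20.4 and 26.4 TPM in the wild-type mice and 26.1, 26.3 and 36.9 TPM in the knockout mice. With TPM as deposited, wild-type replicate 2 was lowest and knockout replicate 3 highest. After scaling wild-type replicate 3 was lowest, at 24.0. The log2 fold change was 0.20 ± 0.22 (SE), or 0.17 after scaling. It was 0.039 without knockout replicate 3 and 0.045 without wild-type replicate 2. Rsad2 was low, with 2.37 ± 0.155 and 2.66 ± 0.639 TPM.

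The Mx GTPases trap viral nucleocapsids, and C57BL/6 mice are known to carry defective alleles. Mx1 (chr16:97447035-97462907) measured 1.32, 0.937 and 1.32 TPM in the wild-type mice and 2.05, 0.656 and 1.16 TPM in the knockout mice. The knockout group held both extremes, with a log2 fold change of 0.01 ± 0.32 (SE). Mx2, annotated as a polymorphic pseudogene, was the single gene of the 33 whose groups did not overlap, and it was chosen for mention after its values were seen. It measured 0.666, 0.427 and 0.566 TPM in the wild-type mice and 0.677, 0.733 and 0.846 TPM in the knockout mice. At a mean of 0.653 TPM it was not tested, and with no filter on low values its log2 fold change was 0.25 ± 0.14 (SE; limma unadjusted p = 0.126, exact permutation p = 0.1, the smallest possible).

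Among the other interferon-induced genes, Ifi35 was the most abundant. Ifi35 (chr11:101448407-101458698) measured 31.5, 20.03 and 27.6 TPM in the wild-type mice and 26.7, 24.2 and 26.0 TPM in the knockout mice. With TPM as deposited the wild-type values enclosed the knockout ones, and the log2 fold change was −0.02 ± 0.22 (SE). After scaling the highest was 27.9, in wild-type replicate 1, and the lowest 24.5, in knockout replicate 3. Xaf1, a protein that promotes apoptosis (chr11:72301629-72313733), measured 14.05, 15.3 and 15.5 TPM in the wild-type mice and 11.1, 12.4 and 16.1 TPM in the knockout mice. Knockout replicates 1 and 2 were below all these wild-type values of Xaf1 and knockout replicate 3 above them, with a log2 fold change of −0.19 ± 0.22 (SE). After scaling Xaf1 had 12.4, 19.6 and 14.1 in wild type and 10.5, 13.6 and 15.2 in knockout. Only knockout replicate 1 was then outside the wild-type range. Samd9l, which restricts translation, had 16.5 ± 1.07 and 15.5 ± 1.19 TPM, and Rtp4, a negative regulator of the interferon response, 5.65 ± 0.323 and 6.27 ± 1.27 TPM. Ifi44 had a mean of 0.534 TPM and was not tested.

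The 29 genes were next read library by library, as in the plot of deviations by library. Knockout replicate 3 held the highest TPM for 13 of the 29 genes and the lowest for 0. Knockout replicate 2 held the lowest for 13 and the highest for 0. Over all tested genes, knockout replicate 3 was highest for 17.5% and lowest for 1.56%. Knockout replicate 2 was lowest for 24.6% of them and highest for 2.90%, so that both counts of 0 are near the background. Over the 29 genes, TPM + 0.5 had geometric means of 11.3, 10.8 and 11.7 in the wild-type libraries, by replicate number, and 11.4, 9.84 and 13.0 in the knockout libraries. The lowest and the highest of the 6 means were both in knockout mice.

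The order of the libraries changed with the scaling. In TPM as deposited, the typical gene of wild-type replicate 2 lay 0.33 below its own mean over libraries on the log2 scale, and the typical interferon-stimulated gene 0.06 below. After scaling the typical gene lay 0.003 above its mean and the typical interferon-stimulated gene 0.28 above. Wild-type replicate 2 then held the highest value for 17 of the 29 genes, against 20.6% of all genes, and the lowest for 0, against 19.15%. Knockout replicate 3 held the highest for 4, against 12.7% of all genes, and knockout replicate 2 the lowest for 7, against 25.9%, so that neither count stood far from the share of all genes. Zbp1 after scaling was 27.5 in wild-type replicate 2 against 9.99 and 12.7 in the other wild-type mice. Oasl2 was 10.2 against 3.86 and 5.96, and Ddx60 5.17 against 1.90 and 2.502. The scaled geometric means were 10.1, 13.5 and 10.7 in wild type and 10.8, 10.7 and 12.3 in knockout, so that 1 mouse of each genotype, wild-type replicate 2 and knockout replicate 3, stood above the other 4.

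**Figure D3:**
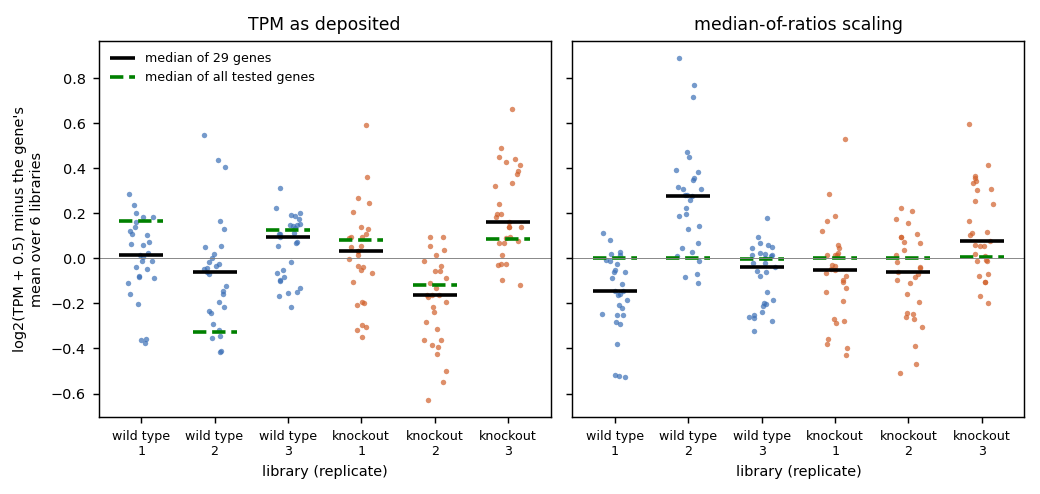
Deviation of log2(TPM + 0.5) from the mean of each gene over 6 libraries, 1 point for each of the 29 tested genes, for TPM as deposited (left) and after median-of-ratios scaling (right), with the median of the 29 genes (black line) and of all tested genes (green dashed line). In wild-type replicate 2 the black line lies above the green one in both panels, at −0.06 against −0.33 and at 0.28 against 0.003, and knockout replicate 3 is the next highest after scaling.

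After scaling, the 29 genes also spread more within a genotype than most genes. The median SD within groups was 0.25 on the log2 scale for the 29 genes and 0.14 for all tested genes, and 26 of the 29 were above the median of all genes. With TPM as deposited these medians were both 0.25. Zbp1 had the largest scaled SD, 0.59, and Oas1a the smallest, 0.06. These counts are descriptions, since genes of a library are not independent.

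Single transcripts of the 33 genes were read next, since a gene total can hide a switch between forms. Values were listed for 133 transcripts, and 61 of them, from 28 genes, had a mean of at least 1 TPM. Of these, 0 passed the threshold in limma (0.0419% of all 31056 tested transcripts did, and 0.0451% after scaling, again with 0 of the 61). An unadjusted p below 0.05 was reached by 1 of the 61, against 5.02% of all, and after scaling by 3, against 11.2% of all. The 1 with TPM as deposited was ENSMUST00000138913, a protein-coding form of Irf1 (chr11:53770477-53772938). It measured 12.8, 10.1 and 13.1 TPM in the wild-type mice and 8.12, 4.63 and 8.30 TPM in the knockout mice, without overlap. The log2 fold change was −0.77 ± 0.26 (SE; limma adjusted p = 0.898, 0.331 after scaling). It made up 8.95% of the Irf1 TPM in wild type and 5.06% in knockout, while the main form, ENSMUST00000108920, made up 51.3 and 50.8%. The forms of Irf1 share exons, so the split between them is an estimate. Another form of Irf1, ENSMUST00000128336, had 0.796 TPM in wild-type replicate 2, 2.48 TPM in knockout replicate 1 and between 8.56 and 11.02 TPM in the other 4 libraries.

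**Figure D4:**
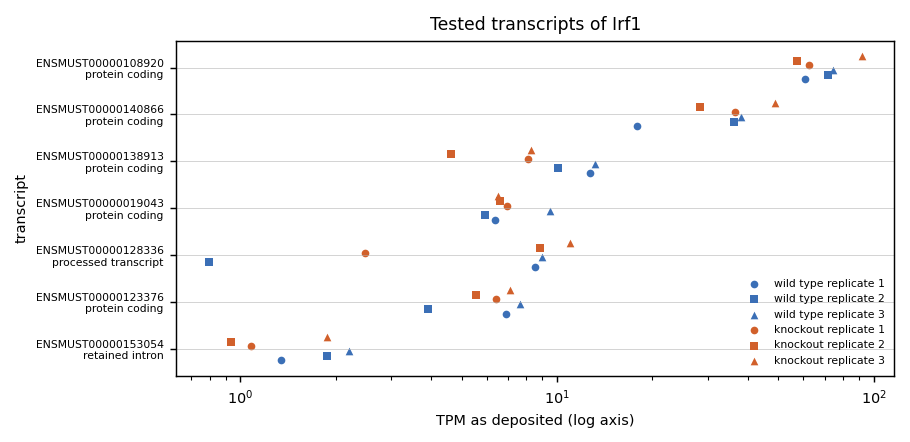
TPM of the 7 tested transcripts of Irf1 on a log axis, 1 point per library, wild type in blue and knockout in orange, with the annotated type under each name. For ENSMUST00000138913 the orange points lie between 4.63 and 8.30 TPM and the blue ones between 10.1 and 13.1 TPM, and the main form at the top overlaps between the groups.

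In 3 further transcripts the groups did not overlap, all higher in knockout, so that 4 of the 61 had no overlap against 8.19% of all tested transcripts. They were ENSMUST00000114877 and ENSMUST00000122870 of Parp9 and ENSMUST00000126167 of Dhx58, and none is annotated as protein coding. After scaling, 3 of the 61 had no overlap, against 18.3% of all: the Irf1 form, ENSMUST00000114877 of Parp9 and ENSMUST00000161809 of Oas1g, the last of these lower in knockout. The Parp9 form ENSMUST00000114877, with a retained intron, measured 0.640, 0.730 and 0.693 TPM in the wild-type mice and 1.72, 1.49 and 1.04 TPM in the knockout mice (log2 fold change 0.67 ± 0.34 SE, limma adjusted p = 0.996). Among the other transcripts with large differences, ENSMUST00000169940 of Eif2ak2 and ENSMUST00000152329 of Oasl1, both with retained introns, overlapped between the groups. Their log2 fold changes were −0.69 ± 0.40 and −0.55 ± 0.42 (SE).

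The ligands that induce these genes were almost unmeasured. Of 21 interferon genes, 15, among them Ifnb1 and most of the alpha interferons, were listed at 0 in all 6 libraries, and none of the others exceeded 0.199 TPM in any library. Ifng was listed at 0, 0.157 and 0.053 TPM in wild type and at 0, 0 and 0.032 TPM in knockout. No difference was detectable at these levels.

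The receptors and kinases were present at higher levels, and 0 of 11 passed the threshold, where 0.267% of all tested genes did. Ifngr2, a subunit of the interferon gamma receptor, had 72.2, 59.3 and 87.7 TPM in the wild-type mice and 76.4, 75.7 and 87.3 TPM in the knockout mice, and Jak1 had 47.9, 33.3 and 47.4 TPM against 51.6, 40.7 and 46.3 TPM. Both were lowest in wild-type replicate 2 with TPM as deposited. After scaling Jak1 no longer overlapped, with all knockout values higher, where 18.7% of all tested genes had no overlap. The median log2 fold change of the 11 genes was 0.03, or −0.003 after scaling.

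Genes that lead to interferon production and genes that restrain its signal did not pass either, at 0 of 13 and 0 of 10 tested. Of all tested genes 0.267% passed. Irf5, a factor of Toll-like receptor signalling, had 6.96, 6.03 and 8.09 TPM in the wild-type mice and 5.07, 3.57 and 6.46 TPM in the knockout mice, and Trim25, the ligase that activates RIG-I, 33.6, 23.5 and 35.3 TPM against 42.5, 31.6 and 37.2 TPM. Ptpn6, a phosphatase of immune cells, had 21.8, 19.9 and 25.7 TPM against 17.5, 14.6 and 21.7 TPM, and Rnf125, a ligase that marks RIG-I for degradation, 5.63, 6.00 and 7.82 TPM against 6.10, 4.25 and 6.24 TPM. All 4 overlapped between the groups with TPM as deposited. After scaling, Irf5 was lower in all knockout mice and Trim25 higher (limma adjusted p = 0.392 for each), where 18.7% of all tested genes had no overlap. The median log2 fold changes of the 2 lists were 0.03 and −0.03.

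A further 48 interferon-stimulated genes outside the 33 were listed, of which 44 were tested and 0 passed, where 0.267% of all tested genes did. The difference was above 0 for 26 and below 0 for 18, with a median of 0.02, and 55.7% of all tested genes were above 0. Ifit1bl1, an IFIT relative, had the smallest p, with 103, 102 and 112 TPM in the wild-type mice and 169, 146 and 173 TPM in the knockout mice. The groups did not overlap, as in 4.98% of all tested genes with TPM as deposited. The log2 fold change of Ifit1bl1 was 0.62 ± 0.19 (SE; limma adjusted p = 0.324, 0.317 after scaling). Cxcl10, a chemokine induced by interferon gamma, had 1.24, 1.62 and 1.10 TPM in the wild-type mice and 1.53, 2.30 and 5.99 TPM in the knockout mice, where knockout replicate 3 was again highest.

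The 44 genes were also read library by library. After scaling, wild-type replicate 2 held the highest value for 19 of them, against 20.6% of all genes, and knockout replicate 3 for 6, against 12.7% of all genes. Knockout replicate 2 held the lowest value for 19 of the 44, against 25.9% of all genes. Wild-type replicate 2 was above the mean of the gene over libraries for 33, against 50.7% of all genes, and knockout replicate 3 for 37, against 52.3%. The guanylate-binding protein Gbp2 measured 11.7, 40.8 and 13.4 after scaling in wild type and 12.8, 14.6 and 34.4 in knockout. Tap1, the peptide transporter of antigen presentation, measured 11.1, 29.3 and 14.5 in wild type and 13.6, 10.7 and 26.8 in knockout. Both were chosen after their values were seen, and both were higher in wild-type replicate 2 and knockout replicate 3 than in any of the other 4 mice. Their log2 fold changes between genotypes were 0.03 ± 0.31 and −0.06 ± 0.28 (SE) with TPM as deposited.

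Markers of the cell types that a whole colon holds were summed for each library. The 10 colon epithelium markers had a median log2 fold change of 0.20, with 8 above 0 and 2 below. Of all tested genes 55.7% were above 0. The sums of these markers overlapped, at 6052 to 8361 TPM in wild type and 7709 to 8266 TPM in knockout. Cdx2 and Krt20 were higher in all knockout mice than in any wild-type mouse without passing the threshold. Of all tested genes, 4.98% had no overlap with TPM as deposited and 18.7% after scaling. The 10 macrophage and dendritic cell markers summed to between 113.8 and 174.6 TPM in wild type and between 123.2 and 180.0 TPM in knockout. The plasmacytoid dendritic cell markers summed to between 21.5 and 44.7 TPM in wild type and between 32.3 and 39.0 TPM in knockout, with 2 of the 5 tested above 0 and 3 below. None of these 5 passed the threshold, and the sums overlapped between the groups. Among them Siglech had 0.978, 1.23 and 1.58 TPM in the wild-type mice and 0.862, 0.680 and 0.693 TPM in the knockout mice. Its groups did not overlap, as in 4.98% of all tested genes with TPM as deposited. Every knockout value of Siglech was below 1 TPM, the mean required for testing. The 10 B cell markers all had differences below 0, with sums from 40.6 to 62.9 TPM in wild type and from 18.3 to 43.6 TPM in knockout. The 10 T and NK cell markers summed to 9.13, 6.23 and 8.53 TPM in the wild-type mice and 6.22, 5.53 and 9.40 TPM in the knockout mice. None of the 10 was at 0 in all libraries, and 3 reached the mean of 1 TPM required for testing. Knockout replicate 3 had the highest sum of macrophage and of T and NK cell markers, also after scaling, at 169.8 and 8.87. The scaled T and NK cell sum was 8.08 in wild-type replicate 1 and 7.94 in wild-type replicate 2. The lowest macrophage sum was in wild-type replicate 2 with TPM as deposited and in knockout replicate 2 after scaling, where wild-type replicate 2 had 145.2. Of the 8 neutrophil markers 3 were tested and 1 passed the threshold, where 0.267% of all tested genes did. It was S100a9, with 8.91, 5.23 and 11.4 TPM in the wild-type mice and 23.5, 16.4 and 38.3 TPM in the knockout mice (limma adjusted p = 0.00656, 0.273 after scaling). Skeletal muscle markers ranged from 162.4 TPM in wild-type replicate 2 to 2617 TPM in wild-type replicate 1, and adipocyte markers from 52.2 to 147.9 TPM in wild type and from 178.9 to 247.0 TPM in knockout, where Cfd passed the threshold (limma adjusted p = 0.00817, 0.286 after scaling). The part of these differences in the levels of the interferon-stimulated genes was not tested.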

How the data were processed

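RNA from 6 whole colons was measured, 3 per genotype, with samples grouped by their titles. The authors deposited 1 table of TPM per transcript; the submitters' processing notes name kallisto 0.43.1, sleuth and mm10. The sources used here do not name the transcript set, and no file gives the reads of a library. The 132639 lines held 131206 transcripts, since 1433 lines repeat one, and each was taken once. Of these, 43008 had no value. TPM were summed by gene symbol, and 1380 transcripts without a gene were left out. Genes or transcripts with a mean of at least 1 TPM were tested as log2(TPM + 0.5) with limma 3.58.1 in R 4.3.3 (eBayes with a variance trend, Benjamini-Hochberg adjustment over all features, threshold 0.05). The labels number replicates without naming animals, so p-values measure the spread between these samples. Libraries correlated between 0.971 and 0.987, and no 2 were identical.

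Positions come from GENCODE M21 (mm10) and promoters from RefSeq. The 31-base sequences were counted in GENCODE M21 transcripts, on either strand; the authors' transcript set may differ. The members and lists were chosen with earlier results of these data known. Values in each library were given for members past the threshold or without overlap and for the 8 with the largest log2 fold change. They were also given for the most abundant member of each role. The same was done for the 2 genes of each list with the smallest p, of which the marker lists are summarised. Of the 5 transcripts with the largest change, ENSMUST00000169940 and ENSMUST00000152329 were given by log2 fold change alone. ENSMUST00000128336 was given by single values and a range, and the others in each library. The alternatives were pseudocounts of 0.1 and 1, no filter, a filter at 5 TPM, 3 other scalings, no trend, robust variance, a replicate block, each library left out, and an adjusted p of 0.1.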

Additional observations from a re-analysis of the deposited data

How the results depend on the processing

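The count of 0 called genes among the 33 and of 0 called transcripts held in every alternative run, including each library left out and an adjusted p of 0.1. The median log2 fold change of the tested members, 0.01, moved by less than the SD of their mean level within groups (0.146) in each, from −0.10 after rescaling to transcripts with a gene to 0.105 without knockout replicate 2. That rescaling moved the median of all genes from 0.02 to −0.10 as well. Without wild-type replicate 2 the medians were −0.03 for the members and −0.13 for all genes. The number of all genes called was 38. It was 24 with a pseudocount of 0.1, 1 with no filter, 142 with a filter at 5 TPM, 6 after median-of-ratios scaling, 4 after rescaling, 7 after quantile normalization and 83 with robust variance. With single libraries left out it ran from 20 without wild-type replicate 2 to 298 without wild-type replicate 1. With the replicate block it was 71 and the members stayed at 0. The samples share only a replicate number: correlations of same-numbered deviations were 0.052, 0.132 and 0.184, and knockout replicate 1 correlated best with wild-type replicate 3.

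Of 236 alternative values for the 15 members with the largest change or level, 23 changed sign, all with an adjusted p of at least 0.707. Mx1 was −0.015 with a pseudocount of 0.1, −0.016 after median-of-ratios scaling and −0.083 after rescaling. Irf1 was −0.00069, −0.099 and −0.069 after median-of-ratios scaling, rescaling and quantile normalization. After rescaling Oas1a was −0.031 and Ifih1 −0.087, and Isg15 was 0.025 after quantile normalization. With single libraries left out, the log2 fold change ran from −0.28 to 0.286 for Mx1, from −0.158 to 0.156 for Irf1, from −0.069 to 0.322 for Ifit1, from −0.038 to 0.177 for Oas1a and from −0.416 to 0.010 for Oasl2. It ran from −0.083 to 0.088 for Isg15, from −0.023 to 0.117 for Ifih1 and from −0.198 to 0.122 for Ifi35. Without changing sign, it ran from 0.043 to 0.460 for Usp18, from −0.355 to −0.056 for Eif2ak2, from 0.039 to 0.334 for Bst2, from −0.337 to −0.080 for Xaf1, from −0.216 to −0.059 for Oas1g, from −0.156 to −0.047 for Ifit3 and from 0.1085 to 0.204 for Parp9. Since the reads of each library are unknown, no counting error could be given.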
